A study of Mus musculus with 24 samples.

Results

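The KLF2 network of lymphoid homing was followed through stimulation in mouse CD4 T cells of TRIM28 knockout mice (KO) and wild-type littermate mice (WT). The 8 genes are the transcription factor genes Klf2, Klf3 and Klf6, the sphingosine 1-phosphate receptor genes S1pr1 and S1pr4, the chemokine receptor gene Ccr7, and the activation and retention genes Cd69 and Cd44. They were chosen by name out of 22180 genes tested, with earlier results of these data known. Their counts set beside those of all genes are thus a description. Each of the 8 has exactly 1 probe set. Naive CD4 T cells, isolated by magnetic enrichment followed by flow sorting, were either used unstimulated (0 h) or stimulated for 4, 24 or 72 h with plate-bound anti-CD3 and soluble anti-CD28, which engage the T cell receptor complex and a costimulatory receptor. RNA was measured on Affymetrix arrays, 3 for each genotype and time, 24 in all in 8 groups. The sources used here do not give how TRIM28 was removed, the promoter of any Cre, the age of the mice or the sort gate. The labels do not tie the arrays of a group to separate animals, so the p-values cover only how far these arrays spread, which may be partly technical.

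KLF2 is a zinc finger transcription factor of resting T cells that keeps them quiescent and sustains transcription of S1pr1. S1PR1 senses sphingosine 1-phosphate in blood and lymph and lets T cells leave lymph nodes, while CCR7 guides them into the nodes towards its chemokine ligands. After antigen recognition T cells shut off KLF2 and S1PR1, and CD69 on the surface binds S1PR1 and takes it down, so that the cells stay in the node for a time. CD44, a receptor for hyaluronan, is kept high on cells that have met antigen.

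The promoters of the 3 factor genes are shown because these genes share a family and a DNA-binding type yet moved differently after stimulation. RefSeq sequence of build GRCm38.p6 was given for 5 of the 8 genes (Klf2, Klf3, Klf6, S1pr4 and Cd44), and the 250 bases upstream of the start of transcription are considered here. The lines below lie on the + strand at chr8:72318812-72319061 (Klf2), chr5:64803271-64803520 (Klf3) and chr13:5861239-5861488 (Klf6), and capitals mark matches to CACCC or its reverse complement GGGTG, the core that KLF proteins bind, and to the MEF2 motif.
Klf2: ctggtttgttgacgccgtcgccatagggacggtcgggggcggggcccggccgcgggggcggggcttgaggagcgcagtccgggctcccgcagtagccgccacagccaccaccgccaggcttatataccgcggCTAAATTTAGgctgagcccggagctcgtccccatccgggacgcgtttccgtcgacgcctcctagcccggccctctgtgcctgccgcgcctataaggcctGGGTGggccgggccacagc
Klf3: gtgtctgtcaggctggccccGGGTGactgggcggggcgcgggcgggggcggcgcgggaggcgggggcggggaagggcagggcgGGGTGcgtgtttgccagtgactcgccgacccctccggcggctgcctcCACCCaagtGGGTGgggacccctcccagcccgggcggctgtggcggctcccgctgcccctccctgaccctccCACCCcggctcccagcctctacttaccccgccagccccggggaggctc
Klf6: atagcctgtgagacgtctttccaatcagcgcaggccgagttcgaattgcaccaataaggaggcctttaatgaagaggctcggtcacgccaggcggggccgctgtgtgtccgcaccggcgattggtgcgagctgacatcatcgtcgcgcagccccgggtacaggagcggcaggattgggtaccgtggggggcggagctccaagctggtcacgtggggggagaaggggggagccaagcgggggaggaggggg
The Klf2 promoter held 1 CACCC match, at -19 to -15 from the start, and the MEF2 match at -118 to -109, the longest run of capitals. The Klf3 promoter held 5 CACCC matches and the Klf6 promoter 0. Of the other promoters given, that of S1pr4 held 1 and that of Cd44 held 0. Of 32851 mouse promoters of the same length, 52% held CACCC on either strand and 0.508% the MEF2 motif. The core of the FOXO motif, GTAAACA on either strand, was in 3.17% of promoters and in 0 of the 5. A match is a description of the letters and does not show that a protein binds there.

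The labels were checked first. Trim28, the deleted gene, was lower on every KO array than on every WT array, with levels of 4.93 to 5.80 in KO and 7.71 to 9.26 in WT on the log2 scale on which all values here are given. The changes from WT to KO were -2.62, -3.10, -3.58 and -3.09 at 0, 4, 24 and 72 h. The sources used here do not say where its probes lie relative to the deleted part. Array medians were between 3.59 and 3.76. The 5 measured CD4 T cell markers (Cd3e, Cd3g, Cd4, Cd5 and Thy1) had a mean level of 10.55 to 11.08 on all 24 arrays, the 2 CD8 markers 4.18 to 4.98, the 2 natural killer markers 2.82 to 3.44 and the 4 endothelial markers 2.70 to 3.07. Array 3 of every group had the Y-linked gene Eif2s3y at 8.0 to 8.69, against 2.14 to 2.75 on arrays 1 and 2, so each group mixed 2 female-type arrays with 1 male-type array. In a bulk sample, fewer cells that express a gene and less RNA of it per cell cannot be told apart.

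**Figure D1:**
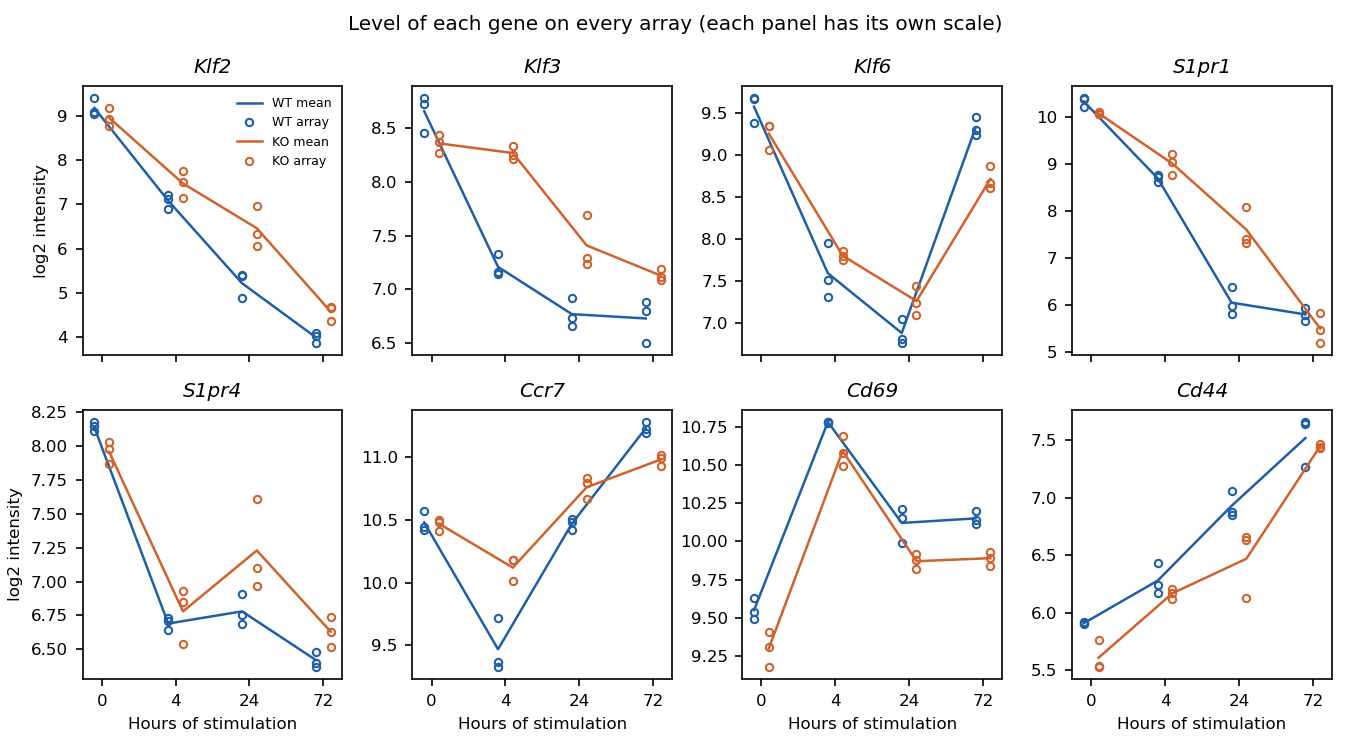
Level of the 8 genes on each of the 24 arrays (log2 intensity, vertical axis) by hours of stimulation (horizontal axis, evenly spaced times), with WT in blue and KO in orange, points for arrays and lines through group means. Each panel has its own vertical scale. Klf2 went from a mean of 9.17 at 0 h to 4.0 at 72 h in WT, and at 24 h the KO arrays of Klf2 and S1pr1 lie above the WT arrays.

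In WT cells all 8 genes had changed by 4 h of stimulation: Klf2, Klf3, Klf6, S1pr1, S1pr4 and Ccr7 fell, while Cd69 and Cd44 rose. Among all genes tested, 17.8% fell and 16.8% rose in that step. Klf2 and S1pr1 went on falling, Ccr7 and Klf6 came back, and Cd44 went on rising. A change was called where limma's moderated test, adjusted after Benjamini and Hochberg over the whole table, gave an adjusted p below 0.05.

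Klf2, the factor the network is named for, read 9.39, 9.04 and 9.08 on the 3 unstimulated WT arrays. After 4 h it read 7.13, 7.20 and 6.90, after 24 h 5.38, 4.88 and 5.40, and after 72 h 4.09, 4.04 and 3.87. The 4 times did not overlap, and the level came down at each. The steps were -2.09 (SE 0.18), -1.86 and -1.22, each called, and over the whole course Klf2 fell by 5.17 (adjusted p = 3.69e-18, limma). On the linear scale the 72 h level was 0.0278 of the unstimulated one, and at 72 h it lay close to the array medians, where RMA compresses differences.

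Klf3, a repressor of the same family, fell early and then held. Its WT arrays read 8.78, 8.73 and 8.46 before stimulation, 7.33, 7.16 and 7.14 after 4 h, 6.92, 6.73 and 6.66 after 24 h and 6.88, 6.80 and 6.50 after 72 h. The 0 h arrays stood above all the others, and those of 24 and 72 h overlapped. The first step was -1.45 (SE 0.11), the second -0.44 (adjusted p = 0.00282, limma), and the third, -0.04 with a 95% interval of -0.28 to 0.19, was not called.

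Klf6, a widely expressed member of the family, made a trough instead. WT arrays read 9.67, 9.66 and 9.37 before stimulation, 7.95, 7.51 and 7.31 after 4 h, 6.81, 6.76 and 7.05 after 24 h and 9.45, 9.23 and 9.29 after 72 h. The 72 h arrays overlapped those of 0 h, and those of 24 h lay below all others. After steps of -1.98 and -0.71, Klf6 rose by 2.45 (SE 0.13, adjusted p = 4.36e-14, limma) between 24 and 72 h, and 72 h against 0 h was not called (-0.24, adjusted p = 0.136, limma).

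S1pr1, the receptor for exit, read 10.38, 10.39 and 10.21 on unstimulated WT arrays. After 4 h it read 8.75, 8.72 and 8.62, after 24 h 6.38, 5.97 and 5.80, and after 72 h 5.65, 5.94 and 5.79. The first 3 times were apart, and the last overlapped that of 24 h. The first steps were -1.63 and -2.64, and the last step, -0.26, was not called (adjusted p = 0.304, limma). S1pr1 at 72 h stood at 0.0434 of its unstimulated level.

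S1pr4, another receptor for the same lipid found mostly in lymphoid and myeloid cells, read 8.11 to 8.18 in unstimulated WT cells and 6.64 to 6.73 after 4 h. That fall of 1.45 (SE 0.12) was its main one. The 24 h arrays (6.69 to 6.91) overlapped those of 4 h. The 72 h arrays (6.37 to 6.48) were lower by 0.37 (adjusted p = 0.0223, limma), a call lost when WT array 2 of 24 h (-0.30) or WT array 1 (-0.34) or 2 (-0.36) of 72 h was left out.

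Ccr7, the receptor for lymph node entry, dipped and then overshot. WT arrays read 10.57, 10.42 and 10.44 before stimulation, 9.72, 9.37 and 9.33 after 4 h, 10.42, 10.51 and 10.48 after 24 h and 11.28, 11.22 and 11.19 after 72 h. The 4 h arrays were the lowest and the 72 h arrays the highest, without overlap, while those of 0 and 24 h overlapped. Ccr7 fell by 1.0, rose by 1.0 and rose again by 0.76 (SE 0.07 for each step), and ended 0.75 above its start.

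Cd69, the early activation marker that retains cells in lymph nodes, peaked at 4 h. WT arrays read 9.63, 9.49 and 9.54 before stimulation, 10.77, 10.78 and 10.78 after 4 h, 10.21, 10.15 and 9.99 after 24 h and 10.20, 10.11 and 10.14 after 72 h. The 3 arrays of 4 h had an SD of 0.01 and were above all others. Cd69 rose by 1.22 (SE 0.06) and fell by 0.66, and the change from 24 to 72 h, 0.03, was not called.

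Cd44 rose at every step. WT arrays lay at 5.90 to 5.92 before stimulation, and then at 6.17 to 6.43 (4 h), 6.85 to 7.06 (24 h) and 7.27 to 7.66 (72 h). The 4 times did not overlap. The steps were 0.37 (adjusted p = 0.0173, limma), 0.65 and 0.59, and the whole rise was 1.61 (SE 0.12). Without WT array 1 of 4 h the first step was 0.30 (adjusted p = 0.0966, limma).

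Read together, 2 of the 8 genes rose and 5 fell between 4 and 24 h in WT, where 21.2% of all genes rose and 11.5% fell. Quantile normalization applied to the gene table again moved the risen share of the genes called from 64.9% to 47.0%, with 3521 higher and 3968 lower. From 24 to 72 h 3 rose and 2 fell (11.6% and 15.8% of all genes), and from 0 to 72 h 3 rose and 4 fell (22.2% and 18.3%). Consecutive steps share their middle arrays, so they are not independent.

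The same genes moved in KO cells, with other timing for some. By 4 h 5 of the 8 fell and 2 rose in KO (16% and 15.1% of all genes). The gene without a call was Klf3, at -0.09 with a 95% interval of -0.33 to 0.14. Between 4 and 24 h 5 fell and 2 rose (13% and 15.3%), between 24 and 72 h 3 fell and 3 rose (8.04% and 9.63%), and from 0 to 72 h 5 fell and 3 rose (18.6% and 21.1%). In KO the 3 steps of S1pr1 were -1.06, -1.40 and -2.10, and those of Klf2 were -1.49, -1.01 and -1.88. S1pr4 rose by 0.45 in KO between 4 and 24 h, which came to 0.26 without KO array 1 of 24 h and 0.33 without KO array 3 of 4 h, neither called. Ccr7 rose by 0.22 in KO between 24 and 72 h (adjusted p = 0.0359, limma), a call lost without KO array 2 or 3 of 24 h or of 72 h.

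**Figure D2:**
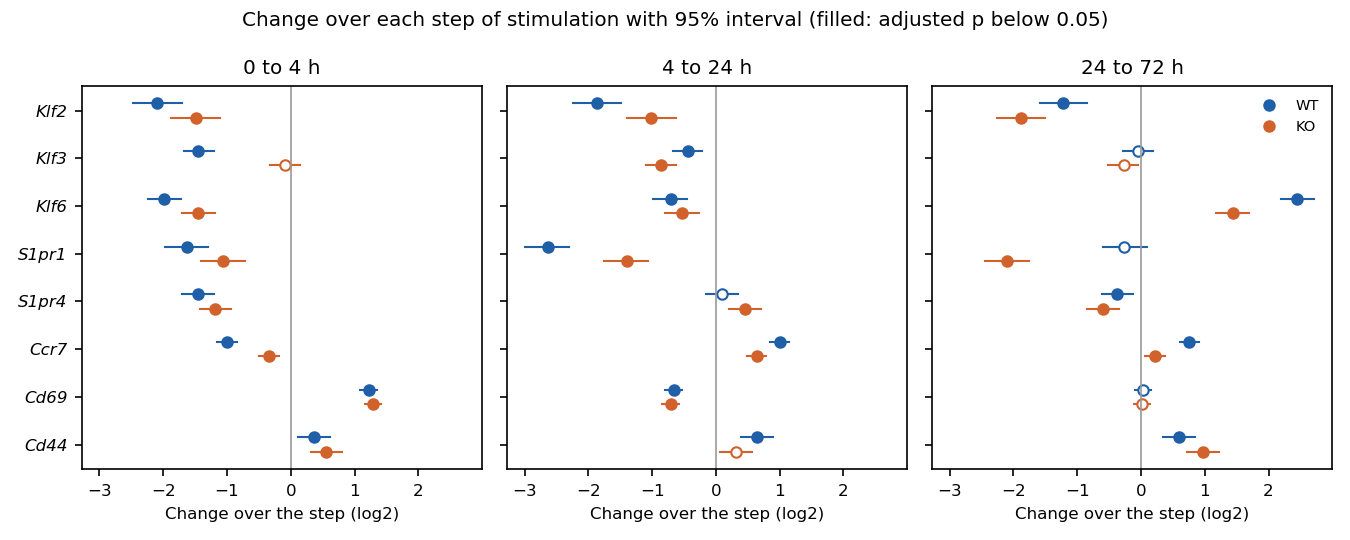
Change of each gene over the steps 0 to 4, 4 to 24 and 24 to 72 h (log2, horizontal axis), with WT in blue and KO in orange. Points are the fitted changes, bars their 95% intervals, and filled points have an adjusted p below 0.05. S1pr1 changed by -2.64 in WT and -1.40 in KO between 4 and 24 h, and by -2.10 in KO between 24 and 72 h.

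At 0 h, before stimulation, 1 gene of the network was called. Cd69 was lower in KO by 0.25 (SE 0.06, adjusted p = 0.0237, limma), and the other 7 genes were not called. Over all genes 0.577% were called lower and 1.76% higher. KO arrays of Cd69 read 9.18, 9.31 and 9.41 against 9.63, 9.49 and 9.54 in WT, and the groups did not overlap. The 8 genes had a median difference of -0.26, against 0.00 over all genes.

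No gene of the network was called higher at 0 h. Klf2 read 9.18, 8.76 and 8.93 in KO, overlapping WT, at a difference of -0.21 (95% interval -0.59 to 0.16). S1pr1 read 10.06, 10.09 and 10.05, below the 3 WT arrays, at -0.26 (adjusted p = 0.59, limma). Klf3 (-0.30), Klf6 (-0.32), S1pr4 (-0.18) and Cd44 (-0.30) also had KO arrays wholly below WT without a call, and Ccr7 was at -0.01. The share of all genes whose groups were apart in this way was not computed, so these separations are a description only. The Cd69 call was lost when WT array 1 or 3 or KO array 1 or 2 was left out, with differences of -0.22, -0.26, -0.19 and -0.26 in turn. The split of calls over all genes, 75.3% higher, was 61.0% after repeated quantile normalization.

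Markers of other cells differed at this time. The 7 myeloid markers had a mean level of 4.85, 4.23 and 5.21 on KO arrays and 4.0, 3.83 and 4.14 on WT arrays, with 3 of 7 called higher in KO. The 6 measured B cell markers were at 5.30, 4.58 and 5.11 against 4.25, 3.89 and 4.84, with 1 called higher. Regulatory T cell markers were at 6.45, 6.03 and 5.93 against 5.89, 5.68 and 5.82, without overlap, with 0 of 3 called. The 5 CD4 T cell markers were at 10.88, 10.91 and 10.9 on KO arrays and 11.08, 11.05 and 11.07 on WT arrays. Those groups did not overlap either, and 1 of 5 was called lower. The part of these cell types in the differences was not tested.

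At 4 h the KO cells kept more Klf3 and Ccr7 RNA than WT cells. Klf3 was higher by 1.05 (SE 0.11, adjusted p = 5.76e-07) and Ccr7 by 0.65 (SE 0.07, adjusted p = 1.16e-06, limma), 2.08-fold and 1.57-fold on the linear scale. The other 6 genes were not called. Of all genes 3.3% were higher and 0.834% lower, and the median difference was 0.26 for the 8 and 0.00 for all genes.

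Klf3 in KO read 8.25, 8.34 and 8.21 at 4 h, above the 7.33, 7.16 and 7.14 of WT and overlapping the 8.27 to 8.44 of KO at 0 h. Ccr7 read 10.01, 10.18 and 10.18 in KO against 9.72, 9.37 and 9.33 in WT, so all KO arrays were above all WT arrays. Both calls were made in each fit that left out 1 array, at 1.02 to 1.11 for Klf3 and 0.58 to 0.78 for Ccr7.

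Klf2 in KO read 7.74, 7.51 and 7.15 at 4 h, which overlapped WT, at a difference of 0.39 (95% interval 0.01 to 0.77, adjusted p = 0.298, limma). S1pr1 read 9.21, 9.04 and 8.76, just above WT, at 0.31 (adjusted p = 0.386, limma). Klf6 (0.21), S1pr4 (0.08), Cd69 (-0.19) and Cd44 (-0.11) were not called either. Myeloid markers were at 4.73, 3.99 and 4.67 on KO arrays and 3.45, 3.79 and 3.96 on WT arrays, with 3 of 7 called higher. Regulatory T cell markers were at 6.30, 6.01 and 5.86 against 5.38, 5.53 and 5.55, without overlap, with 2 of 3 called higher. B cell markers were at 4.64, 4.08 and 4.47 against 3.64, 3.66 and 4.26, with 0 of 6 called. The part of such cells in the 4 h differences was not tested. The split of calls over all genes, 79.8% higher, was 66.2% after repeated quantile normalization.

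At 24 h the network was furthest from WT in the number of genes called. Klf2, Klf3, Klf6, S1pr1, S1pr4 and Ccr7 were higher in KO, and Cd69 and Cd44 were lower, so each of the 8 differed. Over all genes 3.9% were higher and 7.38% lower (1150 higher and 1009 lower after repeated quantile normalization, or 53.3% higher against 34.6%). S1pr1 was 2.92-fold and Klf2 2.36-fold above WT on the linear scale. The median difference of the 8 was 0.42, against -0.05 over all genes.

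Among the factors, Klf2 read 6.97, 6.34 and 6.06 in KO against 5.38, 4.88 and 5.40 in WT. All KO arrays stood above all WT arrays. The difference was 1.24 (SE 0.18, adjusted p = 5.48e-05, limma). Klf3 read 7.69, 7.24 and 7.29 against 6.92, 6.73 and 6.66, also without overlap, a difference of 0.64 (adjusted p = 0.000411, limma). Klf6 read 7.44, 7.24 and 7.10 against 6.81, 6.76 and 7.05. Those groups came close, at 7.10 and 7.05. The difference of 0.39 had an adjusted p of 0.0469 (limma), just under the threshold. That call was lost in 17 of the 24 fits that left out 1 array. Most of those fits left out an array of another time, which kept the difference at 0.39 and moved only the adjusted p.

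Among the receptors, S1pr1 read 8.08, 7.40 and 7.31 in KO against 6.38, 5.97 and 5.80 in WT. All KO arrays were far above WT, and the difference was 1.55 (SE 0.17, adjusted p = 5.28e-07, limma). S1pr4 read 7.61, 6.97 and 7.10 against 6.75, 6.91 and 6.69, a difference of 0.45 (adjusted p = 0.0149) in which array 1 stood highest. Ccr7 read 10.83, 10.79 and 10.67 against 10.42, 10.51 and 10.48, a difference of 0.29 (adjusted p = 0.00875, limma).

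Cd69 and Cd44, which mark stimulated cells, went the other way. Cd69 read 9.88, 9.82 and 9.92 in KO against 10.21, 10.15 and 9.99 in WT (-0.24, adjusted p = 0.0103). Cd44 read 6.13, 6.66 and 6.63 against 6.85, 7.06 and 6.88 (-0.46, adjusted p = 0.0132, limma). Neither pair of groups overlapped, and KO array 1 was the lowest for Cd44. Cd69 was also lower in KO at 0 h (-0.25) and 72 h (-0.26), and at 4 h without a call (-0.19). Cd44 was at -0.30, -0.11 and -0.08 at 0, 4 and 72 h, not called. For neither gene was a step difference between the genotypes called.

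KO array 1 at 24 h carried the highest KO value of all 6 genes that were above WT. Without it Klf2 (0.98, adjusted p = 0.000862), Klf3 (0.49, 0.00761), S1pr1 (1.30, 4.75e-06) and Cd69 (-0.25, 0.039) kept their calls, while Klf6 (0.30), S1pr4 (0.25), Ccr7 (0.26) and Cd44 (-0.28) lost theirs. Markers of B cells had a mean level of 4.81, 4.21 and 4.43 on the 3 KO arrays and 3.92, 3.78 and 4.05 on the WT arrays, highest on that same array, with 1 of 6 called higher. The mean of the regulatory T cell markers (Foxp3, Ikzf2 and Ctla4) was at 7.06, 6.58 and 6.98 against 6.40, 6.29 and 6.28. Of these, 1 of 3 was called higher, and their median difference was 0.02, so the 3 markers did not rise alike. KO array 2 had the lowest B cell, myeloid and regulatory T cell marker levels of the KO arrays at 24 h. Its B cell (4.21) and regulatory T cell (6.58) levels were still above all WT arrays, and its myeloid level (3.59) was not. Klf2 and S1pr1 on it were also above all WT arrays. In a fit that kept that KO array alone beside all WT arrays they differed by 1.13 and 1.35. The lone array is there assumed to vary like the other groups. It was picked after marker genes were seen. The part of these cell types in the 24 h differences was not tested. Other calls rested on WT arrays too: S1pr4 was not called without WT array 1 or 3, Cd69 without WT array 1 or KO array 2, and Cd44 without WT array 2.

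At 72 h the KO cells had more Klf3 and less Klf6, Ccr7 and Cd69 RNA than WT cells, and S1pr1 was not called. Klf6 was lower in KO (-0.62, SE 0.13, adjusted p = 0.00196, limma) as was Cd69 (-0.26, adjusted p = 0.00729). Klf3 was higher by 0.41 (adjusted p = 0.0254) and Ccr7 lower (-0.25, adjusted p = 0.0366, limma). So 1 of 8 was higher and 3 were lower, against 2.56% and 3.78% of all genes. The median difference was -0.16 for the 8 and 0.01 for all genes.

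Klf6 read 8.60, 8.86 and 8.66 in KO against 9.45, 9.23 and 9.29 in WT, and Cd69 read 9.89, 9.84 and 9.93 against 10.20, 10.11 and 10.14. Neither overlapped, and both calls were made in every fit that left out 1 array. Klf3 read 7.19, 7.12 and 7.09 against 6.88, 6.80 and 6.50, and Ccr7 read 10.93, 10.99 and 11.02 against 11.28, 11.22 and 11.19. Those groups did not overlap either. The Klf3 call was lost without WT array 3 or any of the 3 KO arrays, and the Ccr7 call without any 1 of the 6 arrays of this time. When KO array 2 stood alone for KO, 0 of the 8 were called at 72 h, with Klf6 at -0.46 and Cd69 at -0.31.

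Klf2 read 4.69, 4.37 and 4.67 in KO at 72 h, above the 4.09, 4.04 and 3.87 of WT, at a difference of 0.57 (95% interval 0.20 to 0.95) that missed the threshold (adjusted p = 0.0651, limma). It passed in a fit restricted to the groups compared (adjusted p = 0.011, limma). S1pr1 read 5.84, 5.19 and 5.47 against 5.65, 5.94 and 5.79, which overlapped (-0.30, adjusted p = 0.455). S1pr4 (0.22) and Cd44 (-0.08) were not called. Regulatory T cell markers were at 7.20, 6.94 and 7.09 on KO arrays and 6.27, 6.06 and 6.36 on WT arrays. Of these, 2 of 3 were called higher. B cell markers were at 4.49, 3.83 and 4.29 against 3.65, 3.55 and 3.74, with 0 of 6 called. CD8 markers were at 4.57, 4.44 and 4.29 against 4.85, 4.81 and 4.85, with 1 of 2 called lower. Of the CD4 T cell markers 2 of 5 were called higher, and of the myeloid markers 1 of 7 lower. The part of these cell types was not tested.

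**Figure D3:**
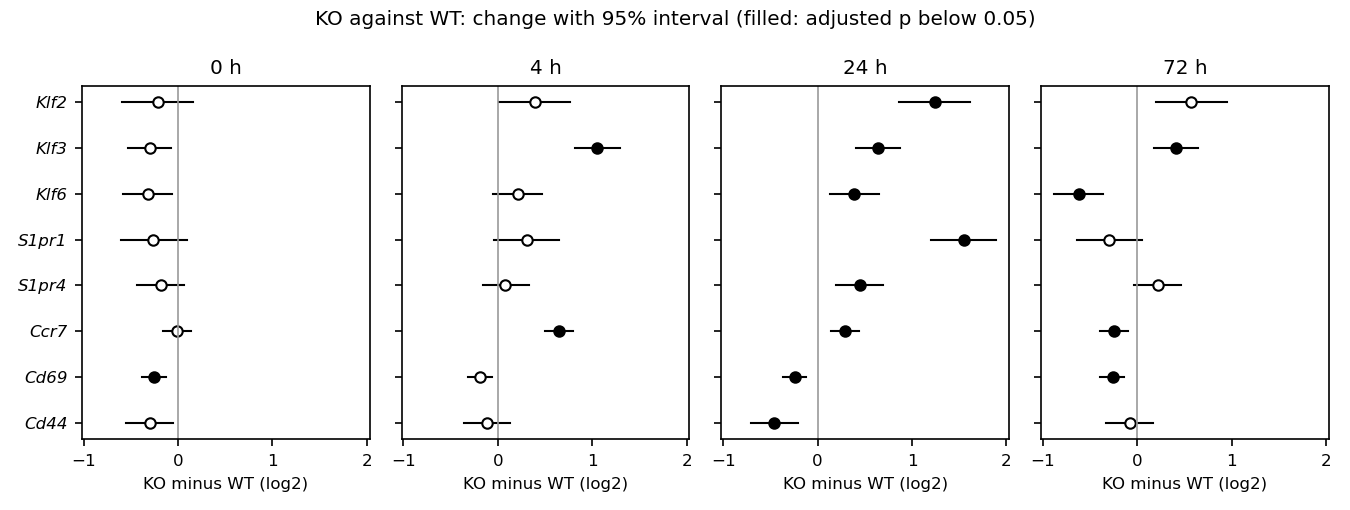
Difference of KO from WT (log2, horizontal axis) for the 8 genes at 0, 4, 24 and 72 h, with points for the fitted difference, bars for its 95% interval, and filled points for an adjusted p below 0.05. At 24 h all 8 points are filled, 6 above 0 and 2 below, and S1pr1 (1.55) and Klf2 (1.24) lie furthest to the right.

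Whether the 2 genotypes responded differently was tested directly, as the KO step minus the WT step. Klf3 and Ccr7 fell less in KO between 0 and 4 h, S1pr1 fell less in KO between 4 and 24 h, and S1pr1, Klf6 and Ccr7 had steps between 24 and 72 h that were lower in KO. These contrasts use the same arrays as the comparisons at each time and add no independent samples.

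For the step from 0 to 4 h, 2 of the 8 had a higher step in KO and 0 a lower one, where 0.446% and 0.28% of all genes did. Klf3 changed by -1.45 in WT and -0.09 in KO, a difference of 1.35 (SE 0.16, adjusted p = 2.3e-05, limma). Ccr7 changed by -1.0 and -0.34, a difference of 0.66 (adjusted p = 0.000685, limma). With arrays 1 and 2 of each group alone the Ccr7 difference was 0.55 (adjusted p = 0.0843), and that of Klf3 was still called, at 1.49.

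For the step from 4 to 24 h, 1 of the 8 was higher and 0 lower, against 0.645% and 1.58% of all genes (263 higher and 169 lower after repeated quantile normalization). S1pr1 changed by -2.64 in WT and -1.40 in KO, a difference of 1.24 (SE 0.24, adjusted p = 0.00428, limma), which with arrays 1 and 2 alone was 1.18 (adjusted p = 0.0683). Klf2 changed by -1.86 in WT and -1.01 in KO, a difference of 0.85 that was not called (adjusted p = 0.0837, limma) and passed without KO array 1 of 4 h (0.99) or KO array 3 of 24 h (1.05).

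For the step from 24 to 72 h, 0 of the 8 were higher and 3 lower, against 4.9% and 3.56% of all genes (874 higher and 958 lower after repeated quantile normalization). S1pr1 changed by -2.10 in KO and -0.26 in WT, a difference of -1.84 (SE 0.24, adjusted p = 8.44e-06, limma). Klf6 rose by 2.45 in WT and 1.44 in KO (-1.0, adjusted p = 0.000559), and Ccr7 by 0.76 and 0.22 (-0.54, adjusted p = 0.00109, limma). For Klf2 the difference of -0.66 was not called (adjusted p = 0.128). It was -0.41 without KO array 1 of 24 h, and it was called without KO array 3 of 24 h (-0.86, adjusted p = 0.0333) and with arrays 1 and 2 alone (-1.06, adjusted p = 0.0498, limma). When KO array 2 stood alone for KO, the step differences of Klf3 (0 to 4 h) and S1pr1 (24 to 72 h) were called, and those of Ccr7 (0.70 and -0.56), Klf6 (-0.83) and S1pr1 from 4 to 24 h (1.01) were not. The steps of Cd69 differed by 0.07, -0.05 and -0.02 between the genotypes, with 95% intervals of -0.12 to 0.25, -0.24 to 0.13 and -0.20 to 0.16.

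The order of the group means shows how far each gene had gone. Klf2 went from WT and KO at 0 h, which overlapped, through KO and WT at 4 h and KO at 24 h, each overlapping its neighbour, to WT at 24 h (5.22), KO at 72 h (4.58) and WT at 72 h (4.0), which were apart. For Klf3 the KO arrays at 4 h (mean 8.27) overlapped those of KO at 0 h (8.36), and KO at 24 h (7.41) overlapped WT at 4 h (7.21). For S1pr1 the 5 highest groups were apart from their neighbours, with KO at 24 h (7.60) between WT at 4 h (8.69) and WT at 24 h (6.05), and the 3 lowest groups overlapped in turn. For Klf6 WT at 24 h (6.88) was the lowest group and WT at 0 h (9.57) the highest, the latter overlapping WT at 72 h (9.32).

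S1pr4 had both 0 h groups on top and KO at 24 h (7.23) as the next group, above WT at 24 h (6.78) without overlap. Ccr7 had WT at 72 h (11.23), KO at 72 h (10.98) and KO at 24 h (10.76) on top, each apart from the next, and WT at 4 h (9.47) at the bottom. Cd69 had WT (10.78) and KO (10.59) at 4 h on top and KO at 0 h (9.30) at the bottom, with the 24 and 72 h groups of 1 genotype overlapping each other. Cd44 had WT (7.52) and KO (7.45) at 72 h on top, which overlapped, and KO at 0 h (5.61) at the bottom.

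Across the 24 arrays Klf2 went with S1pr1 (Pearson r = 0.98), Klf3 (0.91) and S1pr4 (0.84), and against Cd44 (-0.96). Its r with Klf6 was 0.24. These values are a description: the 24 points share times and genotypes, and no test was made. For the deviations of the arrays from their group means r was 0.68 for Klf2 with S1pr1 and -0.48 for Klf2 with Cd44. Among 10389 other genes at or above the median mean level, the patterns most like that of Klf2 belonged to Jak1 (0.987), Pnpla7 (0.985), Ldlrad4 (0.985), Rapgef6 (0.984) and Tcp11l2 (0.983). Those most like Cd69 belonged to Plk3 (0.98), Pogk (0.969), Map2k3os (0.966), Srfbp1 (0.966) and Qtrt2 (0.962).

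The other genes around the network were taken from a list of 76, of which 72 were analysed here. At 24 h 14 of the 72 were higher and 4 lower in KO. The counts were 4 and 2 for 0 h, 7 and 2 for 4 h, and 7 and 5 for 72 h. Over all genes the shares called higher and lower were 1.76% and 0.577% (0 h), 3.3% and 0.834% (4 h), 3.9% and 7.38% (24 h), and 2.56% and 3.78% (72 h), and the counts of each list below are to be read beside these.

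Of 16 genes in the control of KLF2 (FOXO and MEF2 factors, the kinases of the PI3K and ERK5 routes, ubiquitin ligases and histone deacetylases), 0 were called at 0 h, 2 were higher at 4 h and 4 were higher at 24 h, with 0 lower at those times. Pik3ip1, which encodes an inhibitor of PI3K, was higher in KO at 4 h (5.78 ± 0.15 against 5.06 ± 0.07, SD, n = 3, a difference of 0.73, adjusted p = 0.00578, limma) and at 24 h (5.57 ± 0.35 against 4.39 ± 0.10, 1.18, adjusted p = 1.18e-05). Foxo1, the factor known to drive Klf2 transcription in T cells, was higher at 24 h (8.60 ± 0.05 against 8.09 ± 0.07, 0.51, adjusted p = 6.85e-05, limma). Pik3cd, which encodes the lymphocyte PI3K catalytic subunit that opposes FOXO1, was higher at 4 h (0.43, adjusted p = 0.00222) and at 24 h (0.47, adjusted p = 0.000451, limma). At 72 h Mef2d was higher (0.28) and Mef2a lower (-0.34), both calls lost when KO array 2 stood alone for KO. The median of the 16 at 24 h was 0.08, against -0.05 over all genes. When KO array 2 stood alone for KO, 2 of the 16 were higher at 24 h.

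Of 11 further KLF genes, 0 were called at 0 and 4 h. Klf7 was higher in KO at 24 h (0.34, adjusted p = 0.0435), a call lost without KO array 1 of 24 h and when KO array 2 stood alone. At 72 h Klf8 (3.71 ± 0.27 against 5.30 ± 0.29, SD, n = 3, -1.59, adjusted p = 4.12e-05, limma) and Klf4 (5.03 ± 0.25 against 6.11 ± 0.03, -1.09, adjusted p = 0.00051, limma) were lower. The KO level of Klf8 lay within the range of the array medians. Klf8 and Klf4 were not both called when KO array 2 stood alone for KO. KLF4 is another factor of quiescent T cells. Mean Klf4 levels in WT were 5.03, 4.06, 3.91 and 6.11 at 0, 4, 24 and 72 h, and in KO 5.09, 3.91, 3.68 and 5.03. At 72 h KO thus stood near its own 0 h level, and WT above its start. Of 14 genes of the sphingosine 1-phosphate system (other receptors, kinases, lyase, transporters, G proteins and arrestins), 0 were called at 0 and 24 h. Arrb1, which encodes a beta-arrestin of receptor uptake, was higher at 4 h (0.47, adjusted p = 0.00535), a call lost after repeated quantile normalization and when KO array 2 stood alone. S1pr3 was lower at 72 h (3.27 ± 0.44 against 3.97 ± 0.18, -0.70, adjusted p = 0.00419, limma), near the array medians.

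Of 22 homing and adhesion genes, 9 were higher and 2 lower in KO at 24 h, with a median of 0.32 against -0.05 over all genes, of which 3.9% were called higher and 7.38% lower. Without KO array 1 of 24 h it was 7 and 2, and when KO array 2 stood alone for KO 5 and 1. Itga4, the integrin chain of VLA-4, was higher at 24 h (8.08 ± 0.20 against 7.25 ± 0.08, SD, n = 3, 0.83, adjusted p = 5.91e-07, limma). Cxcr5, the receptor for entry into B cell follicles, was higher at 0 h (7.30 ± 0.32 against 5.84 ± 0.53, 1.46, adjusted p = 0.000763), 4 h (1.17, adjusted p = 0.00549) and 24 h (0.84, adjusted p = 0.0275, limma). The 0 h call was lost when KO array 2 stood alone for KO, a fit with fewer arrays. B cells express Cxcr5 as well. The B cell marker levels given above for 0 and 24 h had higher KO than WT means, with 1 of 6 markers called at each time, and their part in the Cxcr5 values was not tested.

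At 0 h 1 of the 22 was higher and 1 lower, the latter being Gpr183, an oxysterol receptor (-0.49, adjusted p = 0.00195, limma). That call was also lost when KO array 2 stood alone for KO. At 4 h 3 were higher and 1 lower. Ccr4, a receptor of skin-homing and T helper 2 cells, had a KO level of 4.94 ± 0.28 against 6.51 ± 0.34 (SD, n = 3), so it was lower in KO (-1.57, adjusted p = 2.25e-07, limma). At 72 h 5 were higher and 1 lower. This became 4 and 1 after repeated quantile normalization and with the replicate block, and fewer were called higher when KO array 2 stood alone for KO. Ccr6, a receptor of T helper 17 and regulatory T cells, was higher (5.54 ± 0.21 against 3.92 ± 0.13, 1.61, adjusted p = 1.92e-09, limma), with its WT level near the array medians. Il7r, the receptor of a survival cytokine of naive cells, was lower (6.34 ± 0.12 against 7.47 ± 0.07, -1.13, adjusted p = 0.00111, limma).

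Of 9 genes that respond to T cell receptor signals, 3 were higher and 1 lower in KO at 0 h (1.76% and 0.577% of all genes), among them Tnfrsf9 (0.84, adjusted p = 6.97e-05) and Il2ra (0.59, adjusted p = 0.00231), both also expressed by regulatory T cells. At 4 h 1 was higher (Mki67, a proliferation gene, 0.46) and 1 lower (Myc, a transcription factor gene of cell growth, -0.33). At 24 h 0 were higher and 2 lower (3.9% and 7.38% of all genes), Cd40lg (-0.72, adjusted p = 0.000136) and Myc (-0.44, adjusted p = 0.00137, limma), beside the lower Cd69 and Cd44. At 72 h Egr2 was higher (0.69, adjusted p = 2.74e-05). When KO array 2 stood alone for KO, the counts were 1 and 1 for 0 h and 0 and 0 for 4 h.

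**Figure D4:**
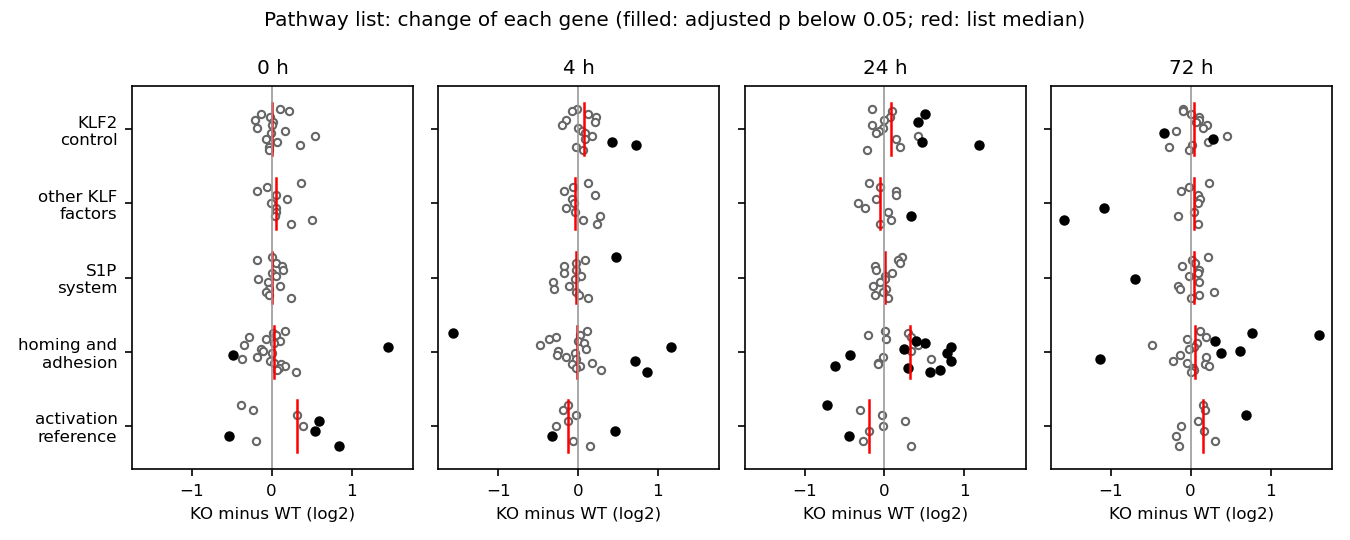
Difference of KO from WT (log2, horizontal axis) for each of the 72 measured genes of the 5 lists around the network, at 0, 4, 24 and 72 h, with filled points for an adjusted p below 0.05 and a red line at the list's median. At 24 h 9 of the 22 homing and adhesion genes are filled to the right of 0 and 2 to the left, with the median at 0.32.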

How the data were processed

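RNA was hybridised to Affymetrix arrays, 1 array per sample. The deposited table holds log2 values for 41345 probe sets, which the authors obtained by RMA (package oligo, R 3.1.0), per the submitters' processing notes. The probe set level, the filters and the handling of batches were not given in sources used here. RMA equalises probe signals between arrays before it summarises them, so it can hide a shift of all genes and compress low signals. The summarised arrays do not share 1 distribution (medians of 3.59 to 3.76), and the table has no detection calls. Precision is limited by the number of arrays.

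Gene names came from the platform's annotation of 25335 probe sets, of which 23521 have 1 symbol and 1814 several (not used). By Entrez ID 23328 were matched to RefSeq names. Where a gene had several probe sets (1082 genes), that of highest mean was taken. Of the array columns, 0 were identical, and the highest correlation was 0.992.

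All 24 arrays entered 1 model of 8 group means in limma 3.58.1 under R 4.3.3 (eBayes with trend, 16 residual and 8.81 prior degrees of freedom, two-sided), adjusted by Benjamini-Hochberg over 22180 genes, with calls at an adjusted p below 0.05. The script was tested on simulated data. The text names the 8 genes, Trim28, up to 2 called genes of each list with the largest change at each time, and the 5 genes most like Klf2 and Cd69. The genes and lists were chosen with earlier results of these data known. The alternatives were the mean of probe sets, a filter at the 40th percentile (3.24), quantile normalization again, a fit of only the groups compared, robust eBayes, the replicate number as a block, arrays 1 and 2 alone and leaving out each array. KO array 2 as the sole KO array was added after marker genes were seen.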

Additional observations from a re-analysis of the deposited data

Results flagged for a closer look

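For 6 steps the KO and WT cells responded differently by the test of the KO step minus the WT step (limma, adjusted p below 0.05 over all genes). From 0 to 4 h the difference was 1.35 for Klf3 and 0.66 for Ccr7, both of which fell by more in WT. From 4 to 24 h it was 1.24 for S1pr1, which fell by more in WT. From 24 to 72 h it was -1.84 for S1pr1, which fell in KO and was not called in WT, -1.0 for Klf6 and -0.54 for Ccr7, both of which rose by more in WT. The S1pr1 steps thus differed in opposite directions before and after 24 h, and both contrasts use the 24 h arrays. Outlying arrays were not tested for, because groups had 3 arrays each.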

How the results depend on the processing

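Each of the 8 genes has 1 probe set, so the mean of probe sets left their levels as they were. It could move only the shared estimate of spread and the adjustment of p. The mean of probe sets and robust eBayes changed no count of called network genes by more than 1.5 times. Of the called KO and WT differences, those of Klf3 and Ccr7 at 4 h and of Klf2 and S1pr1 at 24 h kept their direction and call under every alternative run. At 0 h the count of 1 called gene was 0 when just the groups compared were fitted and 0 when KO array 2 stood alone for KO (0 to 1 when 1 array was left out). At 24 h the 8 became 5 and 2 under those settings (4 to 8 when 1 array was left out). At 72 h the 4 became 2 for arrays 1 and 2 alone and 0 for KO array 2 (2 to 5 when 1 array was left out). For the step differences, the 2 of 0 to 4 h became 1 for arrays 1 and 2 alone and 1 for KO array 2. The 1 of 4 to 24 h became 2 with the filter, 2 with the replicate block, 0 for arrays 1 and 2 alone and 0 for KO array 2 (1 to 3 when 1 array was left out). The 3 of 24 to 72 h became 1 with KO array 2. The cause was not tested, other than that fewer arrays were used in the last settings.

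Signs turned for values near 0, none of them called. Ccr7 at 0 h (-0.01) was 0.00 with arrays 1 and 2 alone, 0.01 with KO array 2 and -0.04 to 0.04 when 1 array was left out. From 24 to 72 h in WT, Klf3 (-0.04) was 0.02 with arrays 1 and 2 alone (-0.12 to 0.07 when 1 array was left out), and Cd69 (0.03) was -0.02 (-0.03 to 0.08). In KO, Cd69 (0.01) ranged from -0.01 to 0.04, and the difference of its steps (-0.02) was 0.04 with arrays 1 and 2 alone (-0.07 to 0.04). S1pr4 from 4 to 24 h in WT (0.09) was -0.14 after repeated quantile normalization.

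The replicate block also brought Klf2 at 72 h (0.57, adjusted p = 0.0144) and its steps of 4 to 24 h (0.85, 0.0277) and 24 to 72 h (-0.66, 0.046) past the threshold. The numbers do not pair the arrays by the labels: of 36 pairs with the same number, 17 had a correlation of deviations over 0.1 (-0.021 to 0.237), and 31 correlated best with their own number, a hint from the data. Arrays 3 also differ from arrays 1 and 2 in sex.

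Over all genes, fitting just the groups compared called 276 in place of 518 at 0 h, 309 in place of 917 at 4 h, 79 in place of 161 for the 0 to 4 h step difference and 184 in place of 494 for that of 4 to 24 h, which was 755 with the filter. Arrays 1 and 2 alone called 284, 562 and 707 at 0, 4 and 72 h (1405 in place of the last) and 76, 190 and 942 for the step differences (1876 in place of the last). KO array 2 standing alone called 133, 238, 472 and 481 at the 4 times, against 2501 at 24 h with all arrays.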
